A study of Macaca fascicularis with 23 samples.

Results

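Solute carriers are the membrane proteins that move ions, metals, sugars, amino acids, vitamins, nucleotides and nucleotide sugars across the plasma membrane and the membranes of mitochondria, Golgi and vesicles. The solute carrier genes described here were the rows named SLC and a number, other than SLC2A1, selected on their level, which had to exceed 4 on the log2(RPM + 1) scale in at least 1 of 23 libraries. RPM is the number of reads of a gene after scaling every library to the same total, with no term for gene length. The level itself is therefore a description. These were 31 of 87 solute carrier rows, among 8415 genes in all. Of the 31 genes, 29 exceeded the level in at least 1 library of pluripotent stem cells (PSCs) and could be tested between media. The other 2, SLC44A4 and SLC50A1, exceeded it only in Stomach and in Liver, respectively.

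Cells of the cynomolgus monkey (Cm, Macaca fascicularis) were profiled by SC3-seq, in which cDNA is amplified and sequenced from its 3′ end. There were 7 PSC lines, with 1 library per line in each of 3 media. CMK6, CMK9 and TRSK were the 3 ESC lines. A single female foetus gave the 4 iPSC lines, of which iPS-L3 and iPS-L6 started from its liver and iPS-S6 and iPS-S12 from its stomach, reprogrammed with episomal vectors for L-MYC, LIN28, KLF4, SOX2, OCT3/4 and a hairpin RNA against p53. Primed PSCs grew in bFGF/KSR medium, which is based on DMEM/F12. Naïve-like PSCs grew in K5cLD medium, which holds KSR, Gö6983, forskolin, kenpaullone, CHIR99021, SB590885, LIF and doxycycline (Dox). The base of this medium also differed, with Neurobasal medium and the N2 and B27 supplements beside DMEM/F12. Naïve-like PSCs carried Dox-inducible human KLF2 and NANOG transgenes on PiggyBac vectors, with a reporter vector that also encodes the rtTA transactivator. Differentiated cells were kept in K5c medium, which holds the same chemicals without LIF and Dox. Before RNA isolation the PSC lines were passaged without feeder cells on laminin-511. The sources used here do not say whether the primed libraries came from cells that already carried the transgenes. The 2 somatic libraries, Liver and Stomach, were cultured cells grown out of those organs.

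Different solute carrier families serve different compartments. SLC25 proteins sit in the inner mitochondrial membrane and carry metabolites between cytosol and matrix. SLC35 proteins bring nucleotide sugars and sulphate donors into the Golgi and endoplasmic reticulum, where glycoproteins and proteoglycans are built. Families such as SLC4, SLC16, SLC19 and SLC39 work mainly at the plasma membrane on bicarbonate, monocarboxylates, vitamins and zinc.

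The depth was 861000 to 7986000 reads per library. The 4 shallowest libraries (primed and naïve-like iPS-L6, differentiated iPS-L3 and iPS-S6) had at most 942000 reads. The level that 3 reads give was 0.38 to 3.49 RPM, which covers counting error only, and lower values were treated as undetectable at that depth. The paper sets a stricter limit, describing a log2(RPM + 1) of 4 as the least that this amplification method detects reliably. Values between these limits are therefore less certain. The labels named no batch. POU5F1, a core pluripotency factor, was 32.8 to 427 RPM in primed, 137 to 575 RPM in naïve-like and 3.59 to 69.2 RPM in differentiated libraries, and was 0 in both somatic libraries. L1TD1 and DPPA4, at most 68 and 47.5 RPM in differentiated libraries, lay under the naïve-like ranges, which began at 82.9 and 55.1 RPM. Like POU5F1, they overlapped with the primed ranges, which began at 19.9 and 36.3 RPM. SOX2, LIN28A and LIN28B, at 220 to 653, 634 to 1420 and 141 to 175 RPM in differentiated libraries, overlapped with both other media. The Liver library held no reads of ALB, AFP and APOA2, the 3 of 9 listed hepatocyte markers in the table, and 4830 RPM of the fibroblast collagen COL1A2, so its label was not borne out by hepatocyte markers. TWIST1, the other fibroblast marker in the table, was only 0.587 RPM in Liver and 5.84 RPM in Stomach, against up to 39.9 RPM in PSCs. The Stomach library held 4510 RPM of COL1A2 together with the gastric genes TFF1, TFF2 and CLDN18 at 89.5, 166 and 188 RPM, while PGC was at 0 and MUC1, at 2.92 RPM, lay within the PSC range. COL1A2 was 21.7 to 579 RPM in primed, 5.55 to 65.6 RPM in naïve-like and 8.5 to 257 RPM in differentiated libraries, and its part in the differences between media below was not tested.

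The table held rows of 30 solute carrier families, and 16 of them had a gene above the level. The families SLC35 and SLC25 supplied 8 of 10 and 7 of 10 of their rows. SLC4 supplied SLC4A4 and SLC4A7 of 3 rows, SLC30 supplied SLC30A1 and SLC30A7 of 4 rows, and 12 families supplied 1 gene each. None of the 8 rows of SLC22, the organic ion transporters, exceeded the level, and neither did the 5 rows of SLC6 or the other 5 rows of SLC2. Among the 56 rows under the level, 6 were at 0 in all 23 libraries and 35 never reached 2. The genes just inside were SLC4A4, SLC50A1 and SLC25A26, whose highest values were 4.19, 4.39 and 4.41. Those just outside were SLC6A9, SLC34A2 and SLC9A9, at 3.97, 3.77 and 3.70.

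Of the 31 genes, 6 exceeded the level in all 23 libraries and 12 in all 21 PSC libraries, while 7 did so in 5 libraries or fewer. The summed RPM of the 31 genes was 856.6 to 1044.8 in primed (median 957.0), 928.4 to 1095.4 in naïve-like (median 1046.1) and 844.5 to 1144.0 in differentiated libraries (median 1028.4). The 3 media overlapped in this sum. Liver, at 531.8 RPM, lay under every PSC library, and Stomach, at 909.7 RPM, lay within their range.

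**Figure D1:**
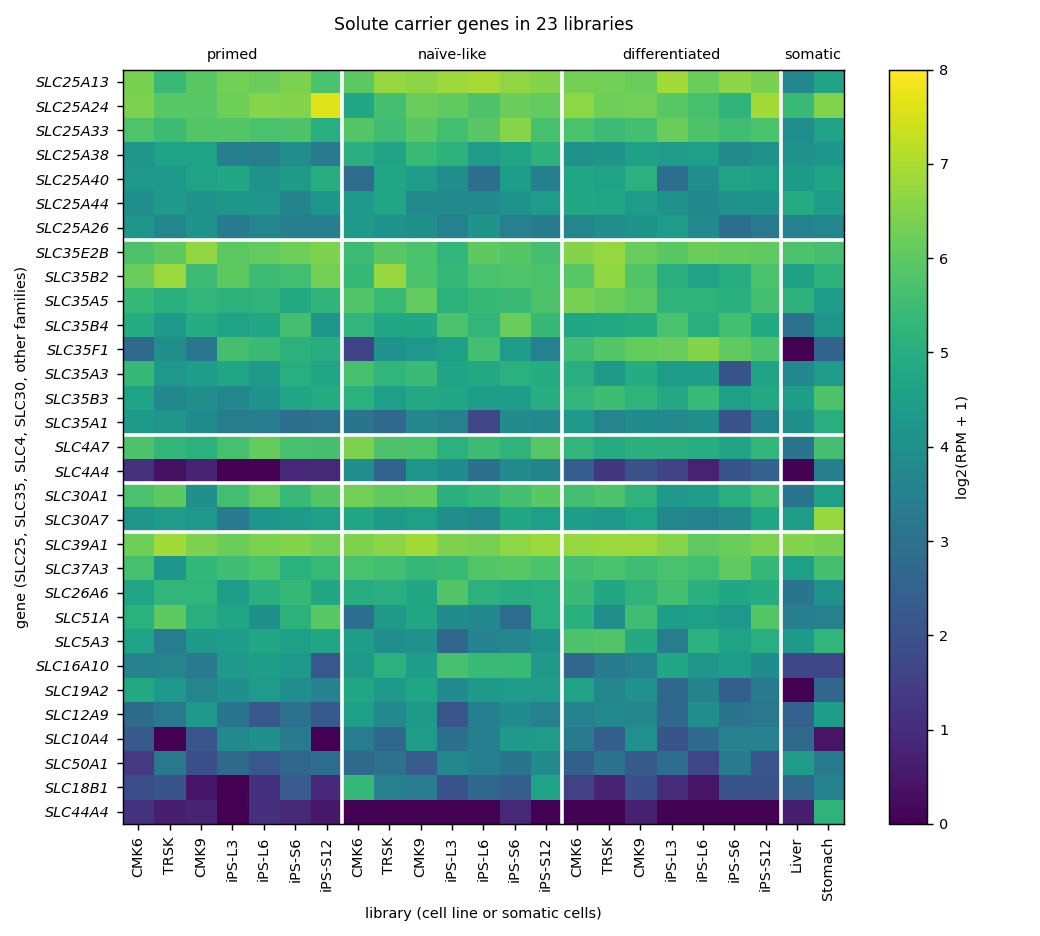
Level of each of the 31 solute carrier genes (rows, by family) in each of 23 libraries (columns, by medium and line), as colour on the log2(RPM + 1) scale from 0 to 8. SLC39A1, SLC25A13 and SLC25A24 were the highest on average in PSCs, and SLC4A4, SLC18B1 and SLC44A4 the lowest.

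The first question was which transporters differed between the naïve-like and the primed state. SLC4A4, SLC18B1, SLC16A10, SLC25A38 and SLC25A13 were higher in naïve-like PSCs, and SLC51A and SLC35E2B were lower. These 7 of 29 genes (24.1%) passed the limma test on log2(RPM + 1) at an adjusted p under 0.05 over all 2776 genes tested, against 19.2% of all genes. The 5 higher genes compare with 11.1% of all genes and the 2 lower ones with 8.18%. The count of lower genes was 0 without iPS-L3, without iPS-S6 and without the naïve-like CMK6 and primed iPS-S12 libraries. The median difference was 0.23 over the 29 genes and 0.06 over all genes. SLC4A4 and SLC18B1 passed the level only in naïve-like libraries (1 and 2 of them), so their inclusion already favoured a naïve-like excess, and the shares above are descriptive. In bulk RNA, fewer cells with a transcript and less transcript per cell cannot be told apart.

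SLC4A4 encodes the electrogenic sodium bicarbonate cotransporter NBCe1, which moves base across the plasma membrane. In primed PSCs it was 0, 0.751 and 1.23 RPM (lowest, median and highest of 7 lines), in naïve-like PSCs 4.93, 13.4 and 17.3 RPM and in differentiated cells 0.666, 2.95 and 4.68 RPM. Every naïve-like library lay above every primed and every differentiated library, whereas primed and differentiated libraries overlapped. Such a separation held for 2.41% (from primed) and 2.92% (from differentiated) of all genes in these directions. SLC4A4 passed the level in 1 naïve-like library only, so its inclusion favoured this order. Its values in all other PSC libraries lay under the limit of reliable detection that the paper names. These shares and the tests of SLC4A4 below are therefore descriptive. The primed values rest on 0 to 6 reads per library, and 5 of the 7 lay under the 3-read level. In naïve-like libraries the gene had 6 to 63 reads.

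By line, the gain of SLC4A4 from primed to naïve-like ran from 2.2 in TRSK to 3.90 in iPS-L3 on the log2 scale, with a fitted difference of 2.98 ± 0.36 (SE, adjusted p = 7.56e-06). With a pseudocount of 0.1 in place of 1 the difference was 4.57, so its size depends on how values near 0 are treated. From naïve-like to differentiated it fell by 1.77 ± 0.36 (adjusted p = 0.00184), in 7 of 7 lines and least in iPS-S12. Differentiated cells remained above primed PSCs of the same line in 7 of 7 lines, by 1.21 ± 0.36 (adjusted p = 0.0272). With a pseudocount of 0.1 this difference was 2.43. In iPS-L3 and iPS-L6 it rests on 2 reads in the differentiated and 0 in the primed library, all under the 3-read level. This last call was lost without CMK6, CMK9, iPS-L3, iPS-S6 or iPS-S12 (adjusted p 0.0526 to 0.085), with only these 2 media in the fit (0.0519) and without the 4 shallowest libraries (0.113).

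SLC4A7, the electroneutral sodium bicarbonate cotransporter NBCn1, followed another course. It was 34.6, 49.7 and 67.4 RPM in primed PSCs, 33.6, 51.8 and 83.8 RPM in naïve-like PSCs and 24.4, 32.7 and 38.6 RPM in differentiated cells. The naïve-like and primed levels differed by 0.04 (95% interval -0.33 to 0.42, adjusted p = 0.901). Differentiated cells were lower than naïve-like PSCs by -0.61 ± 0.18 (adjusted p = 0.0268) and lower than primed PSCs by -0.57 ± 0.18 (adjusted p = 0.0392), in each case in 7 of 7 lines, although the ranges overlapped. The first call was lost without CMK6, TRSK, CMK9 or iPS-S12 (adjusted p 0.0533 to 0.0811), and the second without TRSK, iPS-L3, iPS-L6, iPS-S6 or iPS-S12 (0.0512 to 0.144). Without the 4 shallowest libraries these 2 values were 0.0822 and 0.221. The first was also lost without the naïve-like CMK6 and primed iPS-S12 libraries (0.072), and the second without a filter on low values (0.0668).

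**Figure D2:**
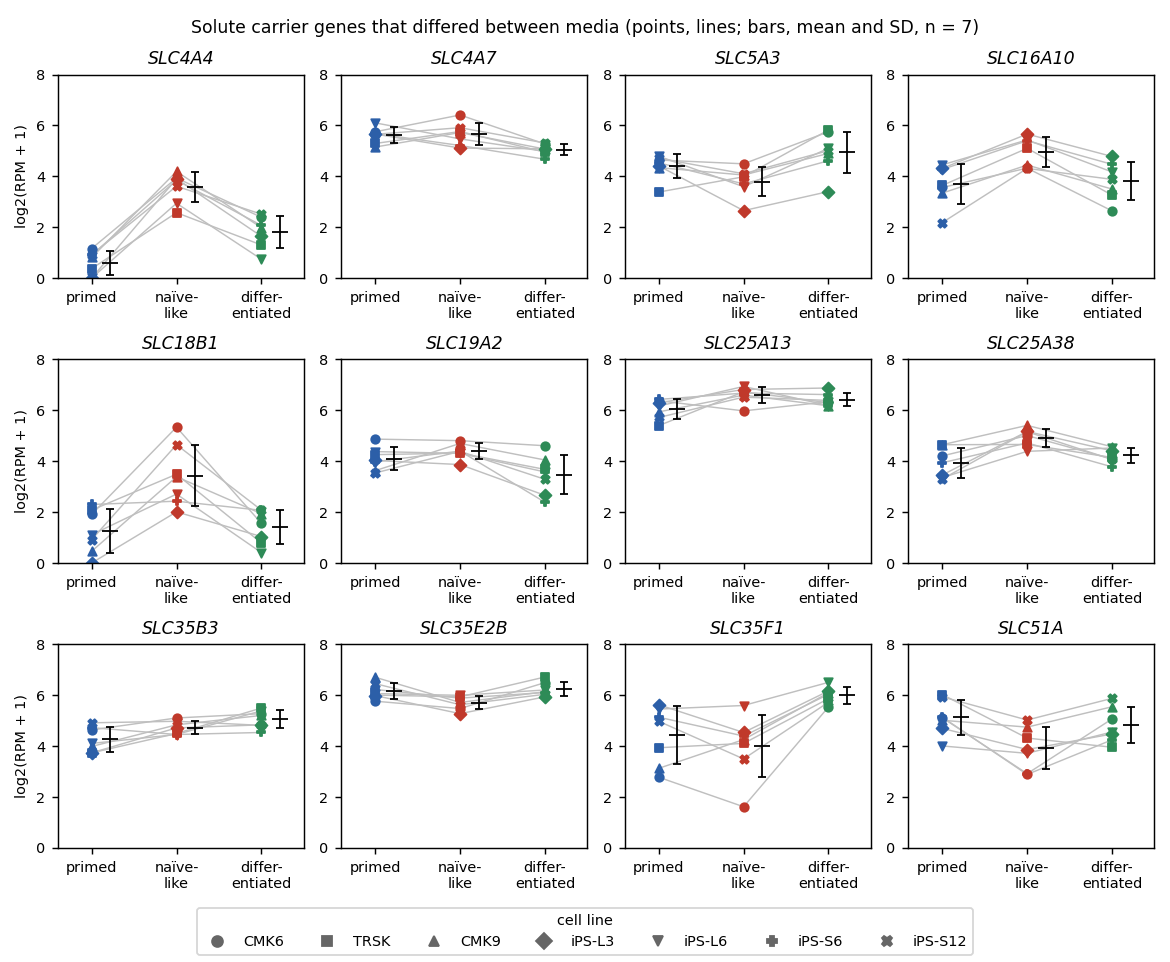
Level of the 12 solute carrier genes that passed the test in at least 1 comparison, on the log2(RPM + 1) scale, in primed, naïve-like and differentiated cells. Each symbol is 1 library, grey lines join the libraries of 1 cell line, and black bars give the mean and SD of 7 lines. SLC4A4 rose and fell in 7 of 7 lines, and SLC35F1 reached 45.4 to 90.2 RPM in differentiated cells.

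SLC18B1, a vesicular polyamine transporter, had the next largest gain. It was 0, 1.16 and 3.91 RPM in primed PSCs, 3.02, 9.50 and 39.5 RPM in naïve-like PSCs and 0.333, 1.96 and 3.22 RPM in differentiated cells. CMK6 and iPS-S12 stood highest in the naïve-like state, at 39.5 and 24.0 RPM, and the naïve-like iPS-L3 library overlapped with both other media. In 3 primed and 2 differentiated libraries SLC18B1 lay under the 3-read level, and it passed the level of 4 in 2 naïve-like libraries only. Its other PSC values lay under the limit of reliable detection that the paper names. Its inclusion favoured a naïve-like excess, so the tests of SLC18B1 below are descriptive. The gain over primed PSCs was 2.18 ± 0.50 (adjusted p = 0.00421, 7 of 7 lines) and ran from 0.13 in iPS-S6 to 3.73 in iPS-S12. Over the alternative settings the fitted gain was 1.8 to 3.09. From naïve-like to differentiated cells SLC18B1 fell by 2.02 ± 0.50 (adjusted p = 0.00835), again in 7 of 7 lines. Differentiated and primed cells differed by 0.16 (95% interval -0.87 to 1.19).

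SLC16A10 encodes TAT1, a carrier of aromatic amino acids and thyroid hormone in the monocarboxylate transporter family. Its levels were 3.54, 11.5 and 20.9 RPM in primed, 18.9, 33.3 and 49.5 RPM in naïve-like and 5.22, 13.7 and 26.6 RPM in differentiated cells. The iPSC lines iPS-L3, iPS-L6 and iPS-S6 were the 3 highest in each medium and iPS-S12 was the lowest primed library, so the ranges overlapped although every line moved the same way. The gain was 1.27 ± 0.35 (adjusted p = 0.0144) and the later fall was -1.14 ± 0.35 (adjusted p = 0.032), each in 7 of 7 lines. The fall was no longer called without CMK6, TRSK, CMK9, iPS-L6 or iPS-S6 (adjusted p 0.0568 to 0.109) or without a filter on low values (0.0723).

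Of the 7 mitochondrial carriers, 2 were higher in naïve-like than in primed PSCs, none was lower and 5 did not pass the test (against 11.1% higher and 8.18% lower of all genes), with a family median of 0.14. SLC25A38, a glycine carrier needed for heme synthesis, was 8.86, 14.3 and 24.1 RPM in primed, 19.9, 31.2 and 41.4 RPM in naïve-like and 12.7, 16.8 and 22.8 RPM in differentiated cells. The gain was 0.99 ± 0.23 (adjusted p = 0.00494) with 7 of 7 lines higher, but TRSK moved by only 0.01 while iPS-L3 and iPS-S12 moved by 1.72 and 1.86. In the naïve-like state only iPS-L6 reached down into the differentiated range. The decrease on differentiation, -0.70 ± 0.23 (adjusted p = 0.0441, 6 of 7 lines), was lost under every omission of a line except iPS-L6 (adjusted p 0.0586 to 0.131), with a pseudocount of 0.1 (0.0511), without a filter (0.074), after quantile normalization (0.0676) or library centring (0.067), without the 4 shallowest libraries (0.0653) and without the naïve-like CMK6 and primed iPS-S12 libraries (0.0609).

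SLC25A13, known as citrin, exchanges aspartate for glutamate in the malate-aspartate shuttle that brings reducing equivalents into mitochondria. It was 41.1, 70.9 and 85.1 RPM in primed, 62.0, 102 and 122 RPM in naïve-like and 71.7, 80.0 and 117 RPM in differentiated cells. Naïve-like PSCs were higher by 0.56 ± 0.17 (adjusted p = 0.0227) in 6 of 7 lines. CMK6 went the other way, from 82.5 RPM in the primed to 62.0 RPM in the naïve-like library. Without TRSK, iPS-L6 or iPS-S12 the adjusted p was 0.0649 to 0.0814, and without the 4 shallowest libraries it was 0.055.

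The other mitochondrial carriers did not pass the test in any comparison. SLC25A24, an ATP-Mg/phosphate carrier, was 59.7, 84.9 and 196 RPM in primed, 27.0, 65.0 and 71.5 RPM in naïve-like and 36.1, 73.6 and 118 RPM in differentiated cells. Its highest library was primed iPS-S12 and its lowest naïve-like CMK6, and naïve-like against primed gave -0.65 (95% interval -1.19 to -0.10, adjusted p = 0.0908). SLC25A33, a pyrimidine nucleotide carrier, stayed within 31.4 to 92.0 RPM over the 21 PSC libraries. SLC25A26, which imports S-adenosylmethionine, and SLC25A44, a carrier of branched-chain amino acids, had differences of at most 0.18 in any comparison. SLC25A40 had its largest difference, -0.67 (95% interval -1.33 to -0.02, adjusted p = 0.143), in naïve-like against primed PSCs. The gene ID of SLC25A24 carries no such symbol in the current RefSeq annotation, so its name rests on the deposited table.

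Among the genes lower in the naïve-like state, SLC51A encodes the alpha chain of the organic solute transporter that exports bile acids and steroids. It was 15.1, 33.8 and 64.4 RPM in primed, 6.42, 13.6 and 31.7 RPM in naïve-like and 14.6, 22.6 and 57.9 RPM in differentiated cells. TRSK and iPS-S12 were high in the primed state, CMK6 and iPS-S6 were low in the naïve-like state, and all media overlapped. The difference was -1.21 ± 0.36 (adjusted p = 0.0235), with 7 of 7 lines lower. It was lost without CMK6, iPS-L3 or iPS-S6 (adjusted p 0.0525 to 0.0828), without a filter (0.0558) and without the naïve-like CMK6 and primed iPS-S12 libraries (0.108). The rise from naïve-like to differentiated, 0.89 (adjusted p = 0.107, 6 of 7 lines higher), had an adjusted p of 0.0296 with the cell line as a block. Liver and Stomach, with 1 library each, held 9.98 and 10.4 RPM of SLC51A.

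SLC35E2B, a member of the nucleotide sugar family whose substrate is not established, was 53.5, 66.2 and 104 RPM in primed, 37.8, 51.8 and 63.2 RPM in naïve-like and 60.6, 69.4 and 105 RPM in differentiated cells. Only naïve-like iPS-L6, at 63.2 RPM, lay inside the differentiated range. It was lower in naïve-like than in primed PSCs by -0.47 ± 0.16 (adjusted p = 0.0372, 7 of 7 lines) and higher again in differentiated cells by 0.53 ± 0.16 (adjusted p = 0.0243, 7 of 7 lines). The first call was lost without CMK9, iPS-L3, iPS-S6 or iPS-S12 (adjusted p 0.0721 to 0.114), without a filter (0.0605), with only these 2 media in the fit (0.0515) and without the naïve-like CMK6 and primed iPS-S12 libraries (0.13). The second was lost without CMK6, TRSK or iPS-L3 (0.0503 to 0.0938). The human genome holds a near-identical neighbour of this gene, and reads shared with such a copy could not be told apart here.

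The second question was what changed when LIF and Dox were withdrawn. SLC35F1, SLC5A3 and SLC35E2B were higher in differentiated than in naïve-like cells, and SLC18B1, SLC4A4, SLC16A10, SLC19A2, SLC25A38 and SLC4A7 were lower. These 9 of 29 genes (31%) compare with 14.1% of all genes tested, the 3 higher ones with 6.41% and the 6 lower ones with 7.71%. SLC4A4 and SLC18B1, which passed the level only in naïve-like libraries, are among the 6 lower genes, so these shares are descriptive as well. The median difference was -0.15 over the 29 genes and -0.02 over all genes. The count was 5 without CMK6 and 4 without TRSK. This comparison shares the naïve-like libraries with the previous one, so the genes that rose in one and fell in the other are not independent observations.

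SLC35F1, an orphan member of the nucleotide sugar family best known from brain, was 5.85, 30.6 and 48.5 RPM in primed, 2.08, 18.1 and 47.7 RPM in naïve-like and 45.4, 64.8 and 90.2 RPM in differentiated cells. The primed ESC lines, at 5.85 to 14.4 RPM, lay under the primed iPSC lines, at 30.6 to 48.5 RPM. The range over lines was narrower in differentiated cells, and naïve-like iPS-L6 and primed iPS-L3 reached into it. The rise was 1.99 ± 0.47 (adjusted p = 0.00599) in 7 of 7 lines, from 0.91 in iPS-L6 to 3.91 in CMK6.

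Against primed PSCs, SLC35F1 was higher in differentiated cells by 1.56 ± 0.47 (adjusted p = 0.0287, 7 of 7 lines), with 1.92 to 2.97 in the ESC lines and 0.54 to 1.05 in the iPSC lines. The difference between ESC and iPSC lines was not tested. The call was lost without TRSK, CMK9 or iPS-S6 (adjusted p 0.0554 to 0.0952), without a filter (0.0761) and without the 4 shallowest libraries (0.0507).

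SLC5A3 encodes the sodium/myo-inositol cotransporter, which takes up inositol. It was 9.41, 22.1 and 26.7 RPM in primed, 5.29, 14.8 and 21.5 RPM in naïve-like and 9.56, 31.3 and 55.4 RPM in differentiated cells. CMK6 and TRSK were highest after LIF and Dox withdrawal, at 52.9 and 55.4 RPM, and iPS-L3 stayed lowest, so the media overlapped. Differentiated cells exceeded naïve-like PSCs by 1.15 ± 0.32 (adjusted p = 0.0189, 7 of 7 lines), a call lost without iPS-L6 (0.0636). SLC5A3 overlaps a gene deposited as LOC101926135, the annotated MRPS6, and the counting did not use strand. That gene was far more abundant, with a mean of 7.88 in naïve-like and 8.06 in differentiated cells on the log2 scale, and its difference was 0.18 (adjusted p = 0.174).

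SLC19A2, a thiamine transporter, was 10.6, 15.3 and 28.3 RPM in primed, 13.6, 19.9 and 27.0 RPM in naïve-like and 4.25, 11 and 23.5 RPM in differentiated cells. Differentiated iPS-L3 and iPS-S6, both among the shallowest libraries, were lowest, and CMK6 was highest in each medium. The decrease from naïve-like cells was -0.93 ± 0.29 (adjusted p = 0.0309, 7 of 7 lines). Without the 4 shallowest libraries the adjusted p was 0.209. It was 0.0592 to 0.111 without TRSK, iPS-L3, iPS-L6, iPS-S6 or iPS-S12, 0.0605 without a filter and 0.0623 without the naïve-like CMK6 and primed iPS-S12 libraries.

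**Figure D3:**
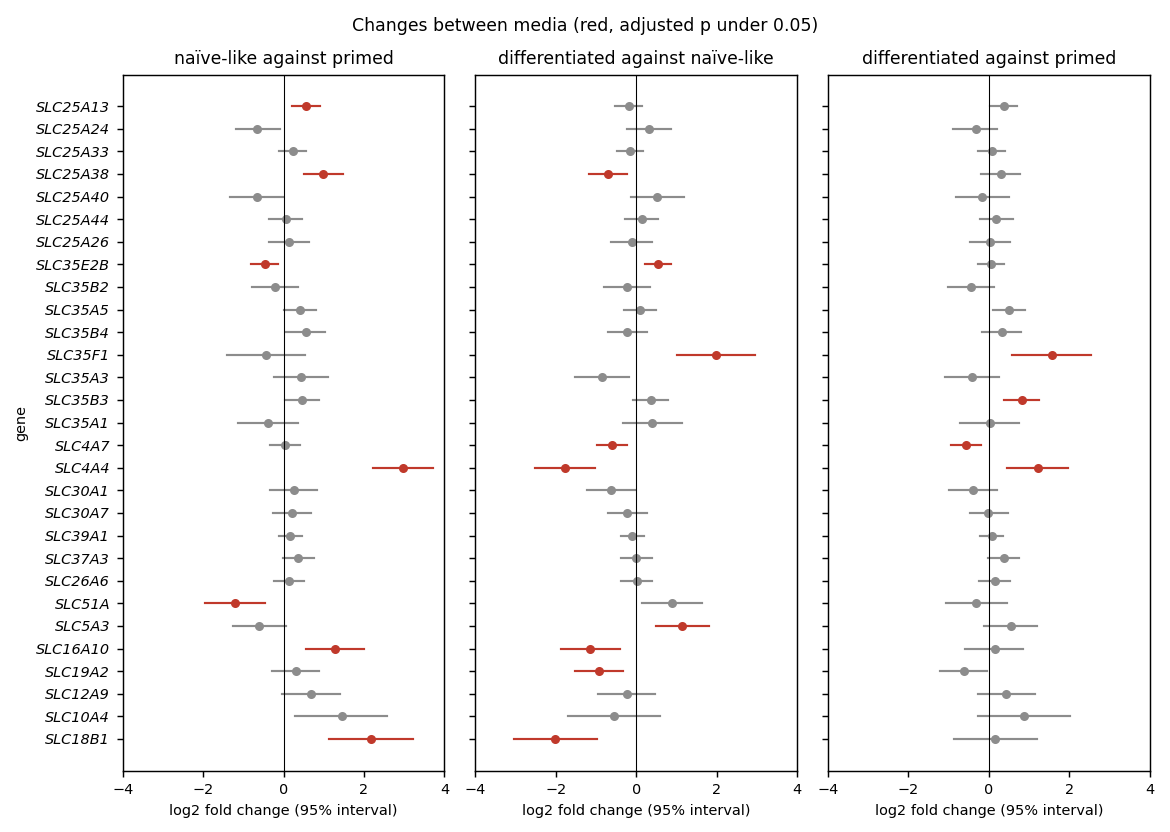
Differences of the 29 tested solute carrier genes between media on the log2(RPM + 1) scale, with 95% intervals from limma, for naïve-like against primed, differentiated against naïve-like and differentiated against primed cells. Red marks an adjusted p under 0.05, which 7, 9 and 4 genes reached.

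Differentiated and primed cells, the third pair of media, differed in fewer transporters. SLC35F1, SLC4A4 and SLC35B3 were higher in differentiated cells and SLC4A7 was lower. These 4 of 29 genes (13.8%) stood beside 13.4% of all genes, with 6.27% of all genes higher and 7.13% lower, and the median difference was 0.14 over the 29 genes and 0.05 over all genes. The count was 1 without TRSK or without iPS-S6, and 2 without CMK9, iPS-L3 or iPS-S12 or without the 4 shallowest libraries.

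SLC35B3 brings PAPS, the sulphate donor of proteoglycan synthesis, into the Golgi. It was 12.3, 16.3 and 29.2 RPM in primed, 21, 25.3 and 33.6 RPM in naïve-like and 22.3, 36.1 and 44.3 RPM in differentiated cells. The ESC lines, iPS-L3 and iPS-L6 were higher in differentiated cells, while iPS-S6 and iPS-S12, the 2 highest primed libraries, were not. The difference from primed PSCs was 0.82 ± 0.21 (adjusted p = 0.00991, 5 of 7 lines higher), and without TRSK the adjusted p was 0.0531.

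SLC35B2, the other PAPS transporter, had no called difference, with -0.45 (95% interval -1.02 to 0.12) between differentiated and primed cells. It was set apart by line rather than medium. TRSK held 111, 108 and 100 RPM in primed, naïve-like and differentiated cells, the highest value of each medium. Averaged over the media on the log2 scale, TRSK stood at 6.74 and the other lines at 5.27 to 5.93.

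The remaining SLC35 genes did not pass the test without a block. SLC35A3, a UDP-GlcNAc transporter, was 18.2, 25.2 and 40.3 RPM in primed, 24.5, 33.9 and 49.5 RPM in naïve-like and 3.18, 20.6 and 31 RPM in differentiated cells. Differentiated iPS-S6 stood alone at the bottom, and each line was lower in differentiated than in naïve-like cells, by -0.86 ± 0.32 (adjusted p = 0.0772, or 0.049 with the line as a block). SLC35B4, which carries UDP-xylose and UDP-GlcNAc, was 0.55 higher in naïve-like than in primed PSCs (adjusted p = 0.104, or 0.0221 with the block, 6 of 7 lines). SLC35A5 was 0.50 higher in differentiated than in primed cells (adjusted p = 0.0872, or 0.0259 with the block, 6 of 7 lines). SLC35A1, the CMP-sialic acid transporter, had intervals that included 0 in the 3 comparisons.

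None of the 3 zinc transporters passed the test in any comparison. SLC39A1, the zinc importer ZIP1, had the highest mean of the set (6.51 on the log2 scale) and stayed within 64.7 to 118 RPM in the 21 PSC libraries. Its differences were 0.17, -0.10 and 0.07, with none of the 95% intervals reaching beyond 0.45 in size. SLC39A1 overlaps CREB3L4, which was higher in naïve-like than in primed PSCs by 1.78 ± 0.42 (adjusted p = 0.00575) but lay at a mean of 3.84 there. SLC30A1, the zinc exporter ZnT1, was 15.0, 50.8 and 66.2 RPM in primed, 32.9, 60.3 and 77.6 RPM in naïve-like and 18.1, 36.1 and 53.5 RPM in differentiated cells. It was lower in differentiated than in naïve-like cells in 7 of 7 lines, by -0.64 (95% interval -1.23 to -0.04), without passing the test (adjusted p = 0.155). SLC30A7, which loads zinc into the Golgi, stayed within 9.12 to 26.9 RPM.

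The spread between lines, after the medium means were removed, was largest for SLC10A4 (SD 1.13 on the log2 scale), SLC35F1 (0.99), SLC18B1 (0.94) and SLC51A (0.75). SLC10A4, an orphan carrier of synaptic vesicles, was 0, 3.69 and 15.1 RPM in primed, 5.31, 9.97 and 20.5 RPM in naïve-like and 3.19, 9.14 and 15.4 RPM in differentiated cells. It was at 0 in primed TRSK and iPS-S12 and at 12.9 and 15.1 RPM in primed iPS-L3 and iPS-L6. Naïve-like PSCs were 1.44 ± 0.55 higher (adjusted p = 0.0708, or 0.0419 with the line as a block), or 2.40 higher with a pseudocount of 0.1, with 5 lines higher and 2 lower. SLC26A6, an anion exchanger, and SLC37A3, of the sugar phosphate exchanger family, had differences of at most 0.37, and SLC12A9, an orphan of the cation-chloride family, of at most 0.68, none past the test.

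The somatic cells, with 1 library each, allowed no test. Liver lay under every PSC library in 10 of the 31 genes (32.3%, against 25.9% of 2916 genes above the level in any library), and by more than 1 on the log2 scale in 7 (22.6%, against 6.45%). These 7 were SLC4A7, SLC19A2, SLC25A13, SLC25A33, SLC26A6, SLC35B4 and SLC35F1. Liver exceeded every PSC library in 2 genes (6.45%, against 11.5% of all genes), in neither by more than 1 (against 3.60%). Stomach exceeded every PSC library in 4 genes (12.9%, against 15.3%), by more than 1 in 2 (6.45%, against 5.32%), and lay under all of them in 5 (16.1%, against 23.9%), in none by more than 1 (against 4.42%). SLC44A4 and SLC50A1 belong to the set only through Stomach and Liver, respectively, so their excess there was fixed by the choice of genes.

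SLC25A13 was 12.3 RPM in Liver and 24.3 RPM in Stomach, whereas the lowest PSC library held 41.1 RPM. SLC25A33 was 14.1 and 23.3 RPM against at least 31.4 RPM in PSCs, and SLC26A6 was 7.63 and 15.9 RPM against at least 20.9 RPM. SLC16A10 was 2.35 and 2.27 RPM against 3.54 RPM in the lowest PSC library, primed iPS-S12. Both somatic libraries were thus under the whole PSC range for these 4 genes. SLC35B4 was 7.04 RPM in Liver and 17.8 RPM in Stomach, which just exceeded the lowest PSC library at 17.3 RPM. SLC35F1 and SLC19A2 were at 0 in Liver, where 3 reads correspond to 1.76 RPM, and at 4.86 and 5.19 RPM in Stomach.

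SLC44A4, a choline transporter-like protein of epithelia, was 36 RPM in Stomach, 0.587 RPM in Liver and at most 1.23 RPM in PSCs. SLC30A7 was 108 RPM in Stomach against 21.1 RPM in Liver and at most 26.9 RPM in PSCs. SLC35A1 and SLC35B3, at 31.1 and 53.2 RPM in Stomach, also lay above the highest PSC libraries, at 19.7 and 44.3 RPM. In Liver, SLC50A1, the sugar transporter SWEET1, was 20.0 RPM against 1.54 to 12.9 RPM in PSCs, and SLC25A44 was 29.3 RPM against at most 27.1 RPM. SLC39A1, at 89.8 and 83.3 RPM in Liver and Stomach, lay inside the PSC range.

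**Figure D4:**
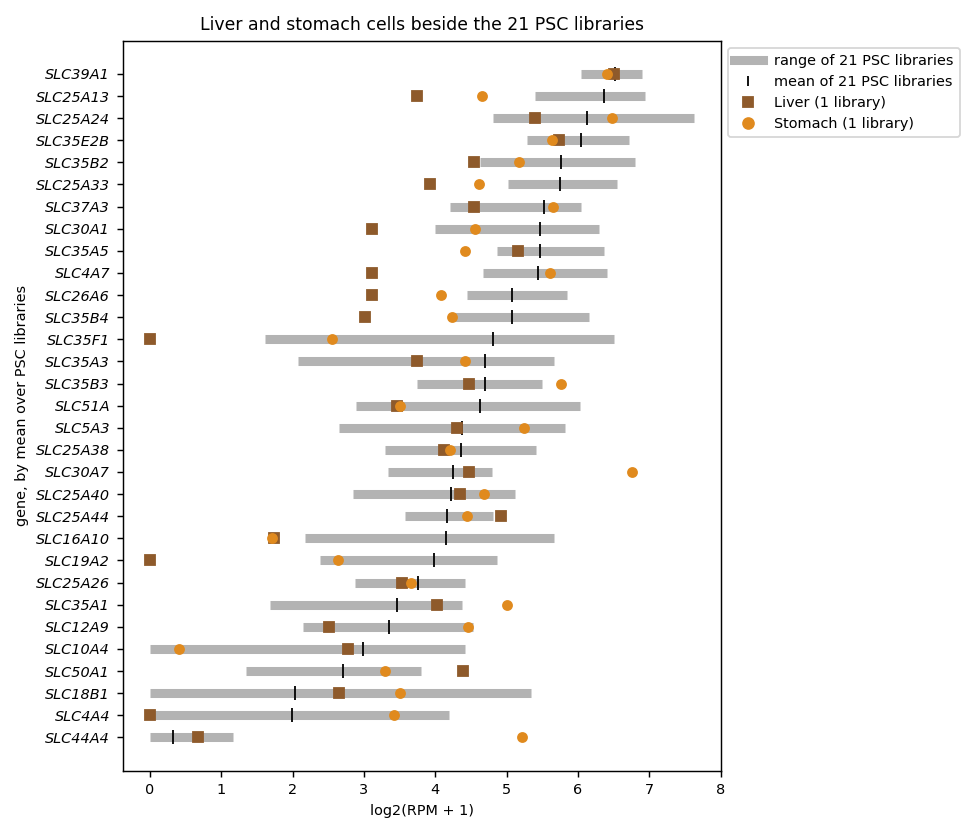
Level of the 31 solute carrier genes on the log2(RPM + 1) scale in Liver (squares, 1 library) and Stomach (circles, 1 library) beside the range (grey bars) and mean (ticks) of 21 PSC libraries. SLC25A13, SLC25A33, SLC26A6 and SLC16A10 lay under the PSC range in both, and SLC44A4 and SLC30A7 lay far above it in Stomach.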

How the data were processed

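Total RNA (1 ng per library) was amplified and its 3′ ends were sequenced as 75 bp single reads. The authors deposited RPM, scaled to the library total by Cufflinks 2.2.0 without strand. The submitters' notes also list cutadapt 1.3 and TopHat 1.4.1. Of 8416 rows, 8415 were complete, holding 24.8% to 27.5% of each library's RPM. Of the values above 0, 87.4% to 93.2% per library (and 95.4% of those of the 31 genes) were whole multiples of 1 read's value within 0.05 reads, too few for count tests, and the step gave the depth. No column lacked a sample.

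Values were taken as log2(RPM + 1), which understates changes of low genes. Genes above 4 in at least 1 of 21 PSC libraries (2776) entered limma 3.58.1 (R 4.3.3), with a mean-variance trend, the 3 media in 1 fit, two-sided, with Benjamini-Hochberg adjustment over all 2776 genes. On simulated data for naïve-like against primed it recovered 70 of 100 genes shifted by 1 and 93 of 100 shifted by 2. It made 10 false calls there, and 0 calls without change. The simulated libraries were drawn independently, without the correlation within lines given below, so the simulation cannot show its effect on the fit. Lines served as replicates, and p-values measure the spread between lines, of which 4 share a donor.

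The labels give the same 7 lines in each medium. Residuals of libraries of the same line correlated by 0.269 on average (0.0304 to 0.561, 21 pairs, 18 above 0.1), and those of different lines by -0.0446 (126 pairs). The line block is printed where it changed a call. Alternatives were a pseudocount of 0.1, no filter, a stricter filter (7 libraries), quantile normalization, library centring, no trend, the block, 2 media, and each line left out. Omitting the 4 shallowest libraries, or naïve-like CMK6 and primed iPS-S12, was chosen after seeing the data. Tables and figures were made with Python 3.11.15, numpy 2.4.6, pandas 2.3.3 and matplotlib 3.10.9.

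The members and lists were chosen with earlier results of these data known. Genes named were those called (up to 8 per direction), the 6 with the highest means, the 5 with the largest excess in Liver, in Stomach or in PSCs over both, the 4 with the largest line spread, the top gene of SLC25 and SLC35 and 3 on either side of the level. The other members were named to account for the whole set. By gene ID, 30 of 31 members matched the RefSeq annotation of T2T-MFA8v1.1, used only for names and overlaps. By it, 14 overlap another gene, in 3 cases one of the table.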

Additional observations from a re-analysis of the deposited data

Results flagged for a closer look

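In 93 groups of 7 libraries (31 genes in 3 media), 15 had their highest or lowest library separated from the nearest other by more of the group's range, on the log2 scale, than Dixon's 95% critical value, where about 4.7 would be expected by chance. That figure is the nominal rate of the critical value. The share of flagged groups over all genes was not computed, so the count does not show an excess particular to these genes. The ratio of gap to range is given for each. Primed PSCs held 5 low libraries. These were TRSK for SLC5A3 (0.681, at 9.41 RPM) and SLC37A3 (0.591, at 17.3 RPM), iPS-S6 for SLC25A44 (0.572, at 10.9 RPM), CMK9 for SLC30A1 (0.669, at 15.0 RPM) and iPS-L3 for SLC30A7 (0.742, at 9.12 RPM). Primed iPS-S12 was high for SLC25A24 (0.639, at 196 RPM).

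In naïve-like PSCs, CMK6 was low for SLC25A24 (0.591, at 27.0 RPM). TRSK was high for SLC35B2 (0.667, at 108 RPM), iPS-S6 for SLC25A33 (0.584, at 92.0 RPM) and iPS-L3 for SLC26A6 (0.666, at 56.3 RPM). In differentiated cells, iPS-S6, one of the 4 shallowest libraries, was low for SLC35A1 (0.688) and SLC35A3 (0.785), both at 3.18 RPM, the value of 3 reads there. Differentiated iPS-L3, also among the shallowest, was high for SLC25A33 (0.595, at 72.3 RPM). SLC44A4 was at 0 in the other 6 lines beside naïve-like iPS-S6 (ratio 1, at 0.876 RPM) and beside differentiated CMK9 (ratio 1, at 0.633 RPM). With the other 6 lines at 0, any value above 0 gives a ratio of 1.

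For SLC25A24, all 3 ESC lines were higher and all 4 iPSC lines lower in differentiated than in primed cells. The mean change was 0.28 in the ESC lines and -0.79 in the iPSC lines, which makes a difference of 1.07 on the log2 scale that was not tested. It was the 1 such pattern among 87 pairs of gene and comparison. How often such a pattern occurs over all genes was not computed, so it may be no more than chance.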

How the results depend on the processing

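None of the 25 differences recomputed (the 20 calls and the 5 gained with the block) changed direction in the alternatives run. The count for naïve-like against primed was 7 and ranged from 5 to 9 over all alternatives (5 to 6 with each line left out), that for differentiated against naïve-like was 9 and fell to 4 to 6 with each line left out (5 without CMK6, 4 without TRSK), and that for differentiated against primed was 4 and fell to 1 to 3 (1 without TRSK or iPS-S6, 2 without CMK9, iPS-L3 or iPS-S12), or to 2 without the 4 shallowest libraries. The cause was not tested. With the cell line as a replicate block, the counts were 9, 11 and 5: all 20 calls were kept and 5 were gained. Calls kept in every alternative that tested the gene were those of SLC4A4 and SLC18B1 (naïve-like against primed, differentiated against naïve-like), SLC16A10 and SLC25A38 (naïve-like against primed) and SLC35F1 (differentiated against naïve-like). The stricter filter left SLC4A4 and SLC18B1 untested and kept the other 15 calls. Those genes passed the level in naïve-like libraries only, so their calls remain descriptive. Without a filter 13 of 20 calls held. The number of genes above the level was 24 to 40 under other levels or numbers of libraries. Depth limits the genes near 0: in the 4 shallowest libraries, values under 3.18 to 3.49 RPM could not be told from 0.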

Other observations

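A further 16 rows of the table carry another name but a solute carrier symbol in the RefSeq annotation by their gene ID, and 12 of them exceeded the level of 4. Of these rows, SLC16A1 (deposited as LOC101866764), the lactate transporter MCT1, had means of 7.84 (primed), 8.06 (naïve-like) and 7.71 (differentiated) on the log2(RPM + 1) scale and did not pass the limma test in any comparison.

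Other transport genes were read from lists. Of 6 tested transport partners and 3 tested ABC transporters, 0 passed the limma test in any comparison, against 19.2%, 14.1% and 13.4% of all genes (naïve-like against primed, differentiated against naïve-like, differentiated against primed), shares at which lists this short can hold no call. Of 6 tested ion pump genes, ATP2B4, a plasma membrane calcium pump, was lower in naïve-like than in primed PSCs by -1.13 ± 0.28 (adjusted p = 0.00799). ATP6V1F, a subunit of the vacuolar proton pump, was higher by 0.34 ± 0.10 (adjusted p = 0.0185) and in differentiated against primed cells by 0.56 ± 0.10 (adjusted p = 0.0004). ATP6V0B, another subunit of that pump, was higher in differentiated than in primed cells by 0.54 ± 0.14 (adjusted p = 0.00965). Of 3 tested genes of the amino-acid stress response, ATF3 was lower in naïve-like than in primed PSCs by -0.96 ± 0.34 (adjusted p = 0.05, just under the threshold before rounding) and higher in differentiated than in naïve-like cells by 1.25 ± 0.34 (adjusted p = 0.0154).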
